A study of Mus musculus with 6 samples.

Results

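Amino acid transporters of 7 solute carrier (SLC) subfamilies were examined in hypoxic cardiomyocyte cultures given β-sitosterol (β-SITO), a plant sterol, or vehicle. The members were the protein-coding genes of the count table named as numbered members of the Slc1, Slc3, Slc6, Slc7, Slc36, Slc38 and Slc43 subfamilies, which gave 61 of 57010 genes. The 40 members with at least 10 counts in 3 or more libraries are described. Of the 21 others, 6 had 0 counts in all libraries (Slc36a3, Slc38a8, Slc6a5, Slc6a18, Slc7a9 and Slc7a12) and 15 had a few counts. Slc6a19 lay just inside this limit, with 11, 16 and 20 counts in the HO + Vehicle libraries. Slc1a7 lay just outside it, with 8, 9 and 15 counts with vehicle and 6, 2 and 8 with β-SITO.

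Amino acid transporters carry amino acids across the plasma membrane or out of lysosomes. Some take them up against a gradient with sodium or protons, and others exchange an amino acid inside the cell for another outside. The supply they set serves protein synthesis, glutathione synthesis and nitric oxide synthesis, and several of their genes respond to amino acid starvation or inflammation. In the heart, glutamine, glutamate and taurine are among the abundant free amino acids. Because the choice followed gene names, the members include carriers of creatine (Slc6a8), serotonin (Slc6a4) and purine nucleobases (Slc43a3), which are not amino acids.

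RNA-seq data came from 6 libraries of primary neonatal mouse cardiomyocytes (NMCMs), all kept under hypoxia (HO). The HO + Vehicle group had the 3 libraries V1 to V3, the HO + β-SITO group had T4 to T6, and no normoxic library was used here. The cells came from C57BL/6 pups 1 to 3 days old and were the non-adherent fraction after fibroblasts had been left to attach, so they were a mixed primary culture. Neither the concentration of β-SITO nor the duration of hypoxia is stated for these libraries, and nothing says whether the 3 libraries of a group came from separate cultures, so p-values measure only the spread between these libraries.

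Total counts ran from 16694734 to 17082129 in the HO + Vehicle group and from 16962152 to 18460522 in the HO + β-SITO group. Levels are in CPM, counts scaled to a common library size with TMM factors, at which 3 counts come to 0.154 to 0.189 CPM. The 12 cardiomyocyte markers were all detected, and their summed level was 6884 to 7919 CPM with vehicle and 6041, 10215 and 10335 CPM in T4, T5 and T6, led by the myosin gene Myh6, so T4 stood apart from T5 and T6. The 9 fibroblast markers summed to 30022 to 31267 CPM with vehicle and to 45022 to 46148 CPM with β-SITO, led by the collagen gene Col3a1. Divided by exon length, the fibroblast sum (3753 to 3846 RPKM) was above the cardiomyocyte sum (2508 to 2879 RPKM) in the HO + Vehicle group, and the same held with β-SITO (5599 to 5763 and 2345 to 4423 RPKM), so fibroblast RNA was plentiful in cultures labelled as cardiomyocytes. Summed levels of the 8 endothelial markers were 199.5 to 229.5 CPM with vehicle and 814.2 to 854.7 CPM with β-SITO, with Cdh5 the most abundant. The 12 macrophage markers, led by Lyz2, summed to 1375 to 1502 CPM with vehicle and 2871 to 3524 CPM with β-SITO, of which 8 rose and 2, Cd14 and Fcgr1, fell. The 8 smooth muscle and pericyte markers, led by Acta2, summed to 1101 to 1194 CPM against 1895 to 2149 CPM. The 5 epicardial markers, led by Upk3b, summed to 53.3 to 58.9 CPM against 87.4 to 107.7 CPM, and the 7 neuronal and Schwann cell markers, led by Tubb3, to 29.8 to 34.5 CPM against 27.8 to 33.2 CPM. No marker was at 0 in all libraries. The part of these cell type markers in the differences below was not tested. In bulk libraries, fewer cells of a type and less RNA per cell cannot be told apart, nor can the treatment be told apart from any separate preparation of the HO + β-SITO libraries, whose names alone carry an added letter.

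With β-SITO, 17 of the 40 described members were differentially expressed genes (DEGs), with an adjusted p under 0.05 in edgeR's quasi-likelihood test and a change of more than 2-fold. Of these, 11 fell and 6 rose. Among all 14799 genes tested, 22.8% were DEGs (10.1% lower and 12.8% higher). The DEGs that fell were Slc6a16, Slc6a4, Slc36a2, Slc1a2, Slc6a19, Slc7a2, Slc6a12, Slc7a11, Slc36a1, Slc7a7 and Slc6a9. Those that rose were Slc38a5, Slc6a7, Slc38a11, Slc1a6, Slc1a3 and Slc38a3. Of the described members, 9 had at least 10 counts in every library of 1 group and not of the other. All 9 were DEGs, 6 lower and 3 higher. The limit itself favours a difference in members that pass through a single group, so these calls are no separate evidence. For the 31 members with at least 10 counts in all 6 libraries, 5 fell and 3 rose by this threshold, where 8.17% of all genes with such counts fell and 10.1% rose.

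Of the 23 members that were not DEGs, 18 had an adjusted p under 0.05 with a smaller change, and 5 did not pass. With no limit on the fold change, 21 members fell and 14 rose, where 33.8% and 33.0% of all tested genes did. For 35 members there was no overlap between the groups, 21 lower and 14 higher with β-SITO. Among all tested genes this held for 70.5%, 35.8% lower and 34.8% higher. The median log2 fold change of the described members was -0.21, and that of all tested genes was -0.01. Without regard to sign, the median change was 0.72 for the members and 0.44 for all tested genes on the log2 scale. These counts, overlaps and medians take in the 9 members with at least 10 counts in every library of 1 group only. The limit favours a difference in such members, and 6 of them fell and 3 rose. At least 10 counts in all 6 libraries were found for 31 of the 40 members and for 13314 of the 14799 tested genes. The members and all tested genes are thus not compared on equal terms.

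**Figure D1:**
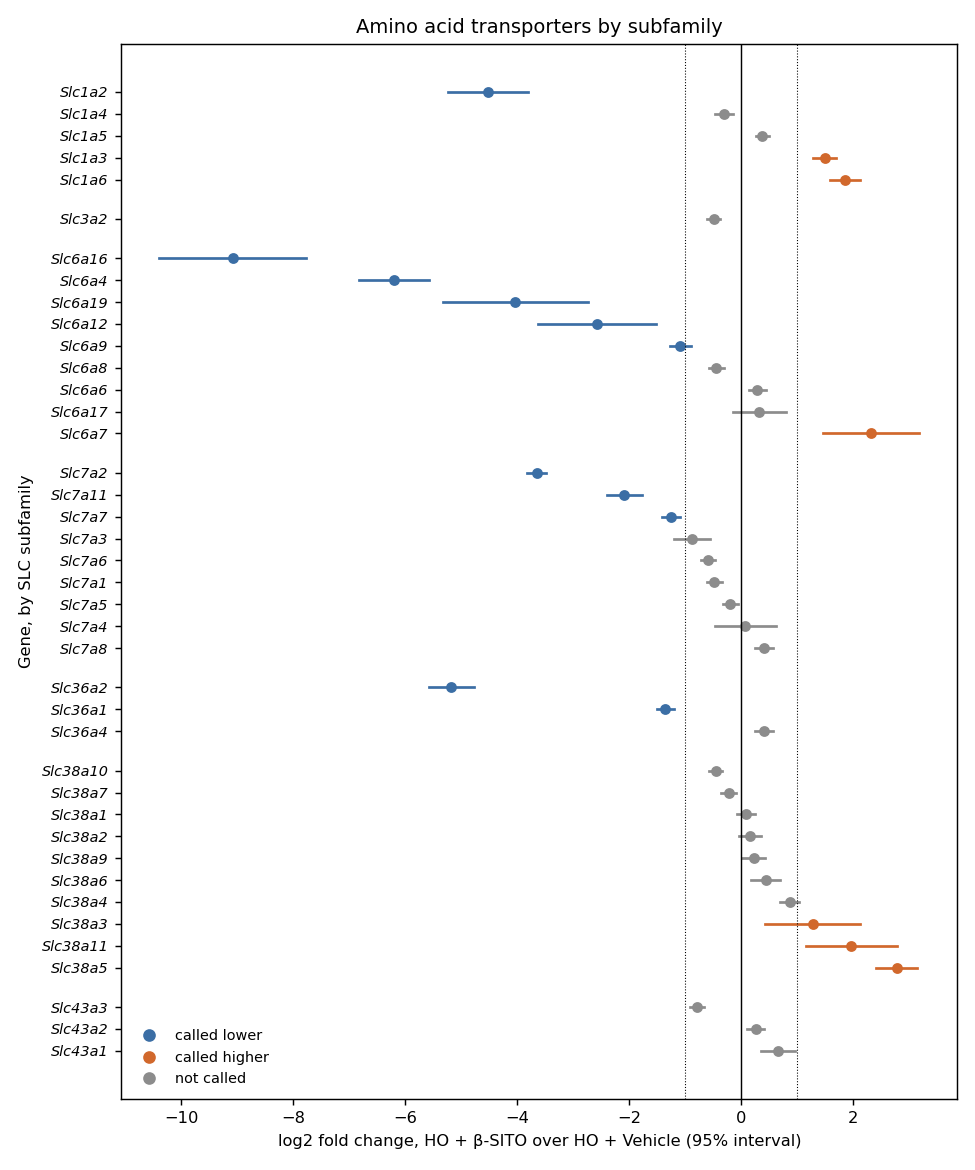
Log2 fold change (HO + β-SITO over HO + Vehicle, horizontal axis) of each of the 40 described members, grouped by subfamily, with 95% intervals from edgeR and dotted lines at a 2-fold change. DEGs that fell (blue) lie in the Slc1, Slc6, Slc7 and Slc36 rows and those that rose (orange) in the Slc1, Slc6 and Slc38 rows; the point of Slc6a16, with 0 counts in every HO + β-SITO library, and that of Slc6a19, with 3 in all, depend on the model's prior count.

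**Figure D2:**
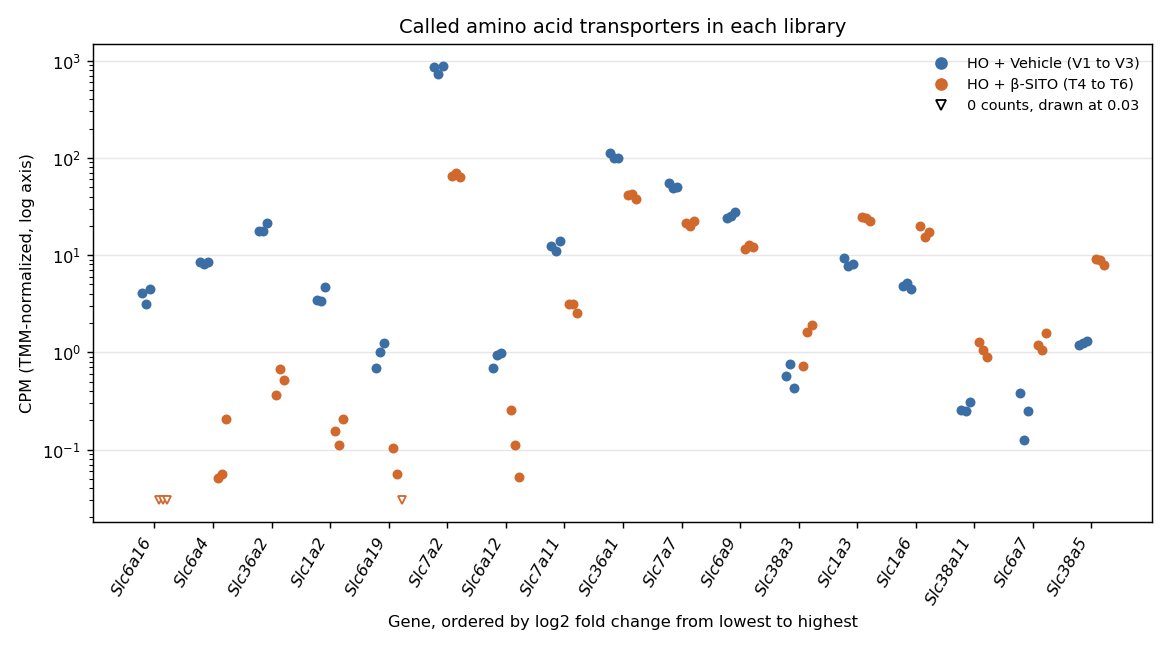
CPM (log axis) of the 17 DEGs in each library, blue for HO + Vehicle and orange for HO + β-SITO, ordered by log2 fold change; open triangles mark libraries with 0 counts. The points of the groups are separate for every gene except Slc38a3, and all 3 HO + β-SITO libraries of Slc6a16 are at 0 counts.

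Among carriers of the cationic amino acids arginine, lysine and ornithine, Slc7a2 fell by more than 2-fold and the other 3 described members changed by less. Slc7a2 encodes CAT-2, an arginine carrier that macrophages induce together with nitric oxide synthase. It lies at chr8:41315433-41375345 on the plus strand (GRCm39, from the deposited table). Its level was 867, 737 and 887 CPM in V1, V2 and V3 and 64.4, 70.4 and 63.1 CPM in T4, T5 and T6. The groups lay far apart, and V2 was the lowest of the HO + Vehicle libraries. Slc7a2 was 12.6-fold lower with β-SITO (95% interval 11.1 to 14.2; adjusted p = 4.68e-15, edgeR). In counts, Slc7a2 alone made up 21.8 to 24.2% of the counts of all 61 members with vehicle and 2.65 to 2.95% with β-SITO.

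The other cationic carriers moved less. Slc7a1, which encodes CAT-1, the carrier of this type found in most cells, went from 118 ± 7.35 to 84.6 ± 2.99 CPM (SD, n = 3 per group), a log2 fold change of -0.48 with no overlap between the groups. Slc7a3, for CAT-3, went from 8.39 ± 1.03 to 4.53 ± 0.611 CPM, a log2 fold change of -0.88. Slc7a4, a relative whose substrate is not settled, was at 1.40 ± 0.171 and 1.46 ± 0.275 CPM, and its groups overlapped. Per length of exon, Slc7a2 was 8.86 ± 0.525 times Slc7a1 with vehicle and 0.984 ± 0.0522 times with β-SITO. The summed level of Slc7a1, Slc7a2 and Slc7a3 went from 957 ± 88.6 to 155 ± 5.52 CPM.

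The sum over all 61 members was 3601 ± 193 CPM with vehicle and 2376 ± 19.1 CPM with β-SITO. Without Slc7a2 the sum was 2771 ± 122 CPM with vehicle and 2310 ± 17.6 CPM with β-SITO, again without overlap. Within it, the nucleobase carrier Slc43a3 alone went from 564 ± 11.9 to 327 ± 8.95 CPM. By subfamily, only the mean Slc1 sum was higher with β-SITO, at 181 ± 7.33 CPM with vehicle and 229 ± 6.75 CPM with β-SITO. The members made up 0.323 to 0.356% of all counts with vehicle and 0.248 to 0.251% with β-SITO.

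Several exchangers work as pairs of a heavy chain and a light chain. Slc3a2 encodes the heavy chain 4F2hc (CD98), which brings the light chains LAT1, LAT2, y+LAT1, y+LAT2 and xCT to the cell surface. Of these genes, the light chains Slc7a11 and Slc7a7 were DEGs, both lower with β-SITO, and Slc3a2, Slc7a5, Slc7a6 and Slc7a8 changed by less than 2-fold. Among all tested genes, 10.1% fell as DEGs. The other heavy chain gene, Slc3a1, had 2 counts in all libraries together and its light chain Slc7a9 had none.

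Slc7a11 encodes xCT, which takes up cystine for glutathione synthesis in exchange for glutamate (chr3:49846975-50398063, minus strand, GRCm39). It was at 12.5, 11.0 and 14.1 CPM in V1, V2 and V3 and at 3.13, 3.15 and 2.55 CPM in T4, T5 and T6. Every HO + β-SITO library was under every HO + Vehicle library, and Slc7a11 was 4.26-fold lower (95% interval 3.43 to 5.27; adjusted p = 4.53e-09, edgeR). Slc7a7 encodes y+LAT1, which exports arginine and lysine in exchange for neutral amino acids and sodium (chr14:54606899-54655237, minus strand, GRCm39). Its levels were 54.5, 48.8 and 49.8 CPM in V1 to V3 and 21.4, 20.1 and 22.6 CPM in T4 to T6. The groups were again separate, and Slc7a7 was 2.39-fold lower (95% interval 2.13 to 2.67; adjusted p = 8.91e-10, edgeR). Slc7a7 overlaps Oxa1l on the opposite strand, which had up to 1123 counts in a library, and whether the counting used strand is not given, so reads in the overlap are uncertain.

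Slc3a2 itself went from 184 ± 5.53 to 131 ± 3.54 CPM, a log2 fold change of -0.50. The light chain Slc7a5 (LAT1), the exchanger that brings in leucine, was at 98.3, 85.9 and 87.2 CPM with vehicle and 78.2, 78.7 and 80.0 CPM with β-SITO, a log2 fold change of -0.20. Slc7a6 (y+LAT2) exchanges arginine for neutral amino acids, and its log2 fold change was -0.60. Slc7a8 (LAT2), an exchanger of neutral amino acids, moved the other way, from 30.1 ± 1.09 to 39.7 ± 2.71 CPM, with a log2 fold change of 0.40. Per length, the ratio of Slc7a8 to Slc7a5 was 0.247 ± 0.0180 with vehicle and 0.373 ± 0.0288 with β-SITO, and the ratio of Slc7a7 to Slc7a6 was 0.949 ± 0.0452 and 0.601 ± 0.0311. The light chains summed per length came to 1.20 ± 0.0223 times Slc3a2 with vehicle and 1.26 ± 0.0278 times with β-SITO, with ranges over libraries of 1.18 to 1.23 and 1.23 to 1.29.

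**Figure D3:**
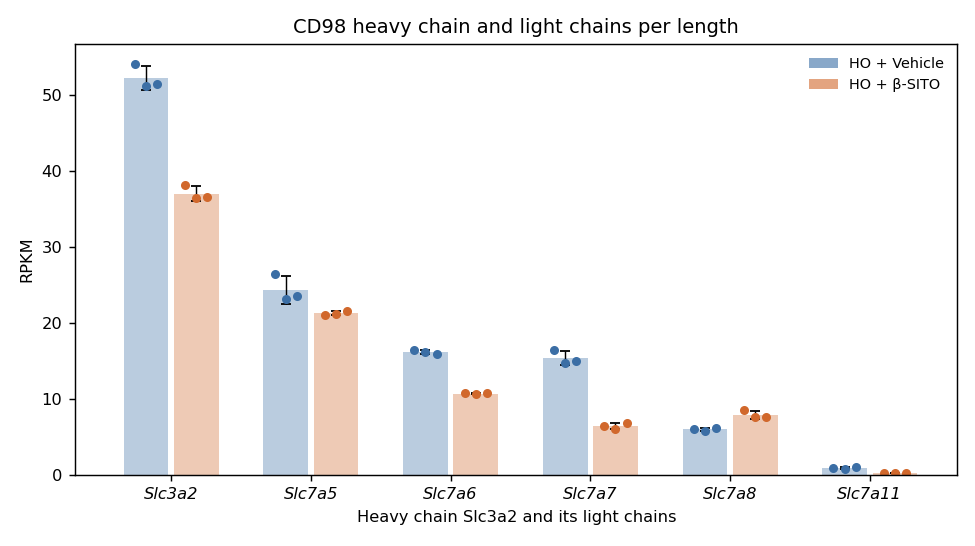
Level per length (RPKM, vertical axis from 0) of the heavy chain gene Slc3a2 and its detected light chain genes, with bars for the mean of 3 libraries, error bars for 1 SD and a point for each library. Blue HO + Vehicle bars are taller than orange HO + β-SITO bars for every gene but Slc7a8, which went from 6.01 to 7.93 RPKM.

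Promoters were read for motifs that answer to amino acid supply, oxidants or inflammation, since several of these genes are known for such regulation. The windows were the 250 bases before each RefSeq transcript start on GRCm38.p6, available for 28 of the 40 described members, with 44 windows in all, and Slc7a2 and Slc36a2 were among the 12 without one. TGATGNAA, the core of the amino acid response element bound by ATF4, was searched on both strands and found in 3 of 44 windows, where 3.452% of 32851 windows of all genes hold it. TGACNNNGC, the core of the antioxidant response element, was in 7 of 44 windows, where 10.161% of all windows hold it. The NF-kappaB consensus was in 5 of 44, where 3.899% of all windows hold it. These 5 windows belong to 4 genes, since overlapping windows of Slc7a7 share the same match. The 3 windows with TGATGNAA belong to 2 genes, Slc7a11 and Slc7a7, and the 7 with TGACNNNGC to 6 genes. No match of one motif overlapped a match of another. Windows of a gene can overlap, and the members differ in how many they have, with 19 windows for 9 DEGs that fell, 4 for 4 that rose and 21 for 15 that were not DEGs, so these counts do not compare the groups of members. TGACNNNGC lay in the DEGs Slc6a9 and Slc6a16 and in Slc38a2, Slc43a1, Slc7a1 and Slc7a6, which were not DEGs. Of the genes with an NF-kappaB match, Slc43a2 was not a DEG. Members that were not DEGs are left out of the display below, so it does not set DEGs apart. Windows are shown for the DEGs with a match to the first or the last motif in which the matches can be seen together. They are written 5′ to 3′ along the gene, with matches in capitals.
Slc7a11, chr3:50443614-50443863 on the minus strand: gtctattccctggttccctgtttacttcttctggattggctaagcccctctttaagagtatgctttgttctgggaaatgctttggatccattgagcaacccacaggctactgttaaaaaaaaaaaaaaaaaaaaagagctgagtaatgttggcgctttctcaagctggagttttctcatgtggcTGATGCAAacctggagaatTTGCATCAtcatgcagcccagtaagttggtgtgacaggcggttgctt
Slc7a7, chr14:54417703-54417952 on the minus strand: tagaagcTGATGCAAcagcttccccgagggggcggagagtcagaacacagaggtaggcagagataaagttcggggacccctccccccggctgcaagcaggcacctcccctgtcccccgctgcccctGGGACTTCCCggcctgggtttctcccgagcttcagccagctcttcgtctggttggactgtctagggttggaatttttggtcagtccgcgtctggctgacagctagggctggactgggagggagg
Slc6a12, chr6:121342324-121342573 on the plus strand: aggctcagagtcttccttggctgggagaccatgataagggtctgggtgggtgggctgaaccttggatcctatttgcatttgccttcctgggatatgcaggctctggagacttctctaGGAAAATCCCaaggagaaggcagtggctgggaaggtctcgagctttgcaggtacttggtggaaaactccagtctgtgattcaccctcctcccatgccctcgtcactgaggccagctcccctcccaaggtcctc
Slc1a6, chr10:78780246-78780495 on the plus strand: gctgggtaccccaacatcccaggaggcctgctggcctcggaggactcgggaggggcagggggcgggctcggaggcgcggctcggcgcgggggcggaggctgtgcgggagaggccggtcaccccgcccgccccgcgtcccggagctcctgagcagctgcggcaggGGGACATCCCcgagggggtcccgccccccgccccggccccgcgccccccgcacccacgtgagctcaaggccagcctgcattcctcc
The Slc7a11 window holds TGATGCAA once on each strand, beginning 66 and 47 bases before the start. In Slc7a7, TGATGCAA begins 243 bases and an NF-kappaB match, GGGACTTCCC, 124 bases before the start, and this is 1 of 5 windows of the gene. Another of its windows, not shown, holds TGATGAAA. Slc6a12 has the match GGGATTTTCC on the opposite strand, its 10 bases beginning 133 bases before the start of the first of its windows. The Slc1a6 match, GGGACATCCC, begins 86 bases before the start. Slc7a11, Slc7a7 and Slc6a12 fell and Slc1a6 rose. A match describes letters in a window and not binding, and binding was not measured in these libraries.

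Carriers of acidic amino acids moved in both directions. Slc1a2, Slc1a3 and Slc1a6 encode sodium-driven glutamate carriers (EAAT2, EAAT1 and EAAT4) best known from the brain, and all 3 were DEGs, where 22.8% of all tested genes were. Slc1a2 had at least 10 counts in every library only with vehicle, so the limit favoured a fall. Slc1a2 (chr2:102489004-102621129, plus strand, GRCm39) had 54, 54 and 75 counts in V1 to V3 and 3, 2 and 4 counts in T4 to T6, and was 23.0-fold lower with β-SITO (95% interval 14.0 to 37.7; adjusted p = 9.72e-09, edgeR). Slc1a3 (chr15:8663608-8740248, minus strand, GRCm39) was at 9.41, 7.71 and 8.18 CPM with vehicle and 24.4, 24.1 and 22.4 CPM with β-SITO. It was 2.80-fold higher (95% interval 2.42 to 3.24; adjusted p = 2.43e-09, edgeR). Slc1a6 (chr10:78616330-78650599, plus strand, GRCm39) was at 4.86, 5.20 and 4.46 CPM with vehicle and 19.7, 15.5 and 17.3 CPM with β-SITO, 3.62-fold higher (95% interval 3.01 to 4.34; adjusted p = 2.75e-09, edgeR). The groups did not overlap for any of the 3 genes, as held for 70.5% of all tested genes. Per length, the sum of the acidic carriers went from 3.76 ± 0.0493 to 11.1 ± 1.04 RPKM, with Slc1a6 the highest of them in both groups.

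The exchangers of small neutral amino acids of the same subfamily moved little and in opposite directions. Slc1a5, for ASCT2, which exchanges glutamine for other neutral amino acids, was at 118, 112 and 111 CPM in V1 to V3 and 152, 148 and 142 CPM in T4 to T6. Its log2 fold change was 0.37 (adjusted p = 3.18e-05, edgeR). Slc1a4, for ASCT1, a carrier of alanine, serine and cysteine, went from 49.5 ± 3.50 to 40.0 ± 3.43 CPM, a log2 fold change of -0.31.

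The Slc6 subfamily, sodium- and chloride-driven carriers, held 5 DEGs that fell and 1 that rose among 9 described members, and most of the DEGs were scarce. Slc6a4, Slc6a16, Slc6a19 and Slc6a12 had at least 10 counts in every library only with vehicle, and Slc6a7 only with β-SITO. These genes passed the limit through a single group, which favours a difference in that direction. Among all tested genes, 10.1% fell and 12.8% rose as DEGs. Slc6a4 encodes SERT, the serotonin carrier (chr11:76889429-76923166, plus strand, GRCm39). It had 133, 129 and 136 counts in V1 to V3 and 1, 1 and 4 counts in T4 to T6, a 73.3-fold difference (95% interval 47.3 to 113; adjusted p = 4.52e-11, edgeR). The size of this difference depended on T6, without which the log2 fold change was -7.08 in place of -6.20. Slc6a16, an orphan carrier (chr7:44890509-44922791, plus strand, GRCm39), had 64, 50 and 72 counts with vehicle and 0 counts in T4, T5 and T6. Against a floor of 3 counts per library, it was at least 23.0-fold lower with β-SITO. Slc6a19, for B0AT1, the neutral amino acid carrier of gut and kidney (chr13:73827864-73852984, minus strand, GRCm39), had 11, 16 and 20 counts with vehicle and 2, 1 and 0 with β-SITO. The ratio of vehicle to β-SITO was 18.5, with an exact counting interval of 5.94 to 92.7 that covers counting error only. Its fitted log2 fold change, which depends on the prior count, was -4.03 with all libraries and -4.84 without T4. In these scarce genes the HO + β-SITO libraries sat at or near the floor, and the groups were separate.

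Slc6a12 encodes BGT1, a carrier of betaine and GABA (chr6:121320035-121342734, plus strand, GRCm39), and had 11, 15 and 16 counts with vehicle and 5, 2 and 1 with β-SITO. It was 5.94-fold lower (95% interval 2.87 to 12.3; adjusted p = 0.000278, edgeR), with a log2 fold change of -2.57, and of -3.32 without T4. Slc6a9 encodes the glycine carrier GlyT1 (chr4:117691703-117732395, plus strand, GRCm39), and was at 23.9, 24.9 and 27.9 CPM in V1 to V3 and 11.6, 12.6 and 12.0 CPM in T4 to T6. The groups were separate, but the 2.12-fold difference lay near the threshold (95% interval 1.86 to 2.43; adjusted p = 3.78e-08, edgeR). Slc6a9 overlaps B4galt2 on the opposite strand, which had up to 451 counts in a library. Slc6a7, for the proline carrier PROT, had 6, 2 and 4 counts with vehicle and 23, 19 and 30 with β-SITO, 4.97-fold higher (95% interval 2.73 to 9.05; adjusted p = 0.000122, edgeR).

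The abundant Slc6 members kept within 2-fold. Slc6a6, for the taurine carrier TauT, was at 237, 195 and 213 CPM with vehicle and 267, 255 and 263 CPM with β-SITO, a log2 fold change of 0.28. Slc6a8, for the creatine carrier CRT, went from 144 ± 6.42 to 105 ± 4.92 CPM, a log2 fold change of -0.45. Slc6a17, a carrier of neutral amino acids in synaptic vesicles, was at 4.89 ± 1.56 and 6.12 ± 1.52 CPM, and its groups overlapped.

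In the Slc36 subfamily of amino acid carriers, 2 of 3 described members were DEGs and both fell, where 10.1% of all tested genes fell as DEGs. Of these, Slc36a2 had at least 10 counts in every library only with vehicle, so the limit favoured a fall. Slc36a2 (PAT2, chr11:55049296-55075903, minus strand, GRCm39) carries glycine and proline. It had 282, 280 and 342 counts in V1 to V3 and 7, 12 and 10 in T4 to T6, a 36.2-fold difference (95% interval 27.5 to 47.7; adjusted p = 1.44e-12, edgeR). Its neighbour Slc36a1 (PAT1, chr11:55095176-55127156, plus strand, GRCm39) works in lysosomes and at the plasma membrane. It was at 114, 98.9 and 100 CPM with vehicle and 41.6, 42.4 and 37.9 CPM with β-SITO, 2.57-fold lower (95% interval 2.31 to 2.85; adjusted p = 1.64e-10, edgeR). Slc36a4 (PAT4), a carrier of proline and tryptophan, went the other way, from 44.3 ± 4.30 to 58.4 ± 1.60 CPM, a log2 fold change of 0.40. For all 3 genes the groups did not overlap, as held for 70.5% of all tested genes.

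The Slc38 subfamily, the SNAT carriers of glutamine and other neutral amino acids, held 3 DEGs, all higher, among 10 described members. Among all tested genes, 12.8% rose as DEGs. Slc38a11 and Slc38a3 had at least 10 counts in every library only with β-SITO, so the limit favoured a rise in them. Slc38a5 (SNAT5, chrX:8137372-8146418, plus strand, GRCm39), a carrier of glutamine, histidine, serine and glycine, was at 1.20, 1.25 and 1.30 CPM in V1 to V3 and at 9.04, 8.94 and 7.86 CPM in T4 to T6. It was 6.84-fold higher with β-SITO (95% interval 5.32 to 8.80; adjusted p = 1e-09, edgeR). Slc38a11 (chr2:65146774-65194378, minus strand, GRCm39) had 4, 4 and 5 counts with vehicle and 25, 19 and 17 with β-SITO, 3.90-fold higher (95% interval 2.23 to 6.84; adjusted p = 0.000292, edgeR). Slc38a3 (SNAT3, chr9:107527833-107546729, minus strand, GRCm39), a carrier of glutamine, histidine and asparagine, had 9, 12 and 7 counts with vehicle and 14, 29 and 37 with β-SITO. In CPM, T4 lay at 0.719, between the HO + Vehicle libraries, whose highest was 0.752, so the groups overlapped. Slc38a3 was 2.41-fold higher (95% interval 1.34 to 4.33; adjusted p = 0.0103, edgeR). Without T4, which also stood apart in cardiomyocyte markers, its log2 fold change was 1.60 (adjusted p = 0.000276, edgeR), against 1.27 with all libraries. Without T6 it was 0.99 (adjusted p = 0.0509) and without V3 1.12 (adjusted p = 0.0563), neither of them a DEG.

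The system A carriers Slc38a1 (SNAT1) and Slc38a2 (SNAT2), which take up glutamine and alanine with sodium, did not pass edgeR's test. Slc38a1 was at 95.4, 75.3 and 86.2 CPM with vehicle and 89.2, 88.3 and 94.1 CPM with β-SITO, with a 95% interval of the log2 fold change of -0.08 to 0.24. Slc38a2, known to rise when amino acids are short, was at 274, 225 and 249 CPM with vehicle and 233, 302 and 299 CPM with β-SITO, with a 95% interval of -0.04 to 0.35. T4 was the low library of its group here too, and without it the log2 fold change of Slc38a2 was 0.27 (adjusted p = 0.00228, edgeR) in place of 0.16 (adjusted p = 0.148). Slc38a4 (SNAT4), an imprinted gene of the same system, went from 22.1 ± 1.35 to 40.2 ± 2.71 CPM, and with a log2 fold change of 0.87 it lay just under the 2-fold threshold. Of the lysosomal members, Slc38a9, the arginine sensor that acts on mTORC1, had a log2 fold change of 0.22 (adjusted p = 0.0531, edgeR), and Slc38a7, which exports glutamine from lysosomes, had one of -0.22 (adjusted p = 0.00617). Slc38a6 and Slc38a10 had log2 fold changes of 0.43 and -0.46.

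The Slc43 subfamily carries large neutral amino acids without being driven by sodium or protons, apart from Slc43a3. None of its 3 members was a DEG, where 22.8% of all tested genes were. Slc43a3, a carrier of purine nucleobases, was at 562, 553 and 577 CPM in V1 to V3 and 337, 320 and 323 CPM in T4 to T6, a log2 fold change of -0.79 with separate groups. Slc43a1 (LAT3) had a log2 fold change of 0.66 and Slc43a2 (LAT4) of 0.25.

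To compare the members with each other, CPM was divided by exon length in kilobases, giving RPKM. Slc43a3 had the highest RPKM in both groups, at 126 ± 2.66 with vehicle and 73.2 ± 2.0 with β-SITO. Slc7a2 was second with vehicle, at 90.9 ± 8.92 RPKM, and 19th of 40 with β-SITO, at 7.22 ± 0.423 RPKM. Slc38a10 (57.2 ± 1.19 and 41.7 ± 0.525 RPKM) and Slc3a2 (52.3 ± 1.57 and 37.1 ± 1.0 RPKM) followed, and these 2 differed by more than their SD in each group. Slc1a5 rose in rank from 7 to 4, at 27.2 ± 0.870 and 35.3 ± 1.18 RPKM. With vehicle it did not differ beyond the SD from its neighbours in that order, Slc6a8 (27.6 ± 1.23 RPKM) and Slc6a6 (25.4 ± 2.53 RPKM). Of the DEGs that rose, Slc1a6 reached the highest RPKM, 8.14 ± 0.971, against 2.25 ± 0.172 with vehicle. Exon lengths ran over all annotated exons of a gene, so the RPKM of a gene that uses few of them is understated.

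**Figure D4:**
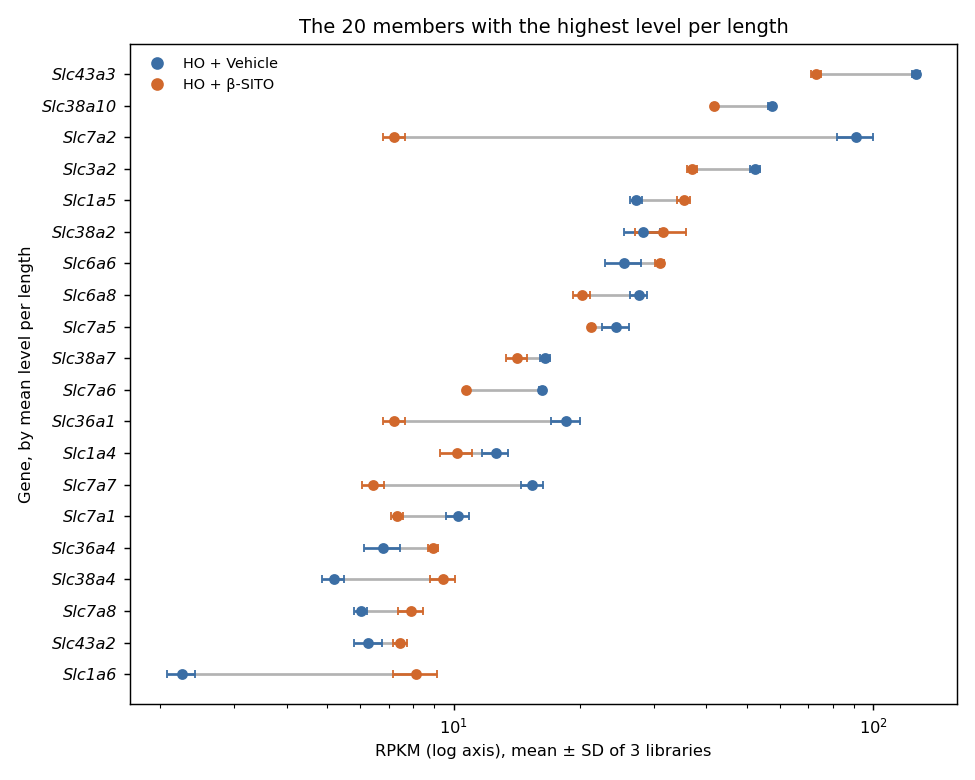
RPKM (log axis) of the 20 described members with the highest mean level per length; points are means of 3 libraries, error bars are 1 SD, and a grey line joins the HO + Vehicle (blue) and HO + β-SITO (orange) means of a gene. The longest lines belong to Slc7a2, which went from 90.9 to 7.22 RPKM, and Slc1a6, which went from 2.25 to 8.14 RPKM.

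Other genes of amino acid handling were read from lists, whose counts stand against 10.1% lower and 12.8% higher DEGs among all tested genes, or 33.8% lower and 33.0% higher at an adjusted p under 0.05 alone. Among 21 other amino acid and peptide carriers, 14 were tested, and 3 fell and none rose as DEGs. Slc15a3, a lysosomal carrier of histidine and small peptides, was at 542, 522 and 518 CPM in V1 to V3 and 28.2, 22.1 and 23.6 CPM in T4 to T6, a log2 fold change of -4.42. The mitochondrial glutamate carrier Slc25a22 went from 87.0 ± 4.18 to 15.8 ± 0.510 CPM, and its relative Slc25a18 from 120 to 2 counts over the 3 libraries of each group, a ratio of 70.7 with an exact counting interval of 19.2 to 591.

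Of 10 tested genes of arginine and polyamine metabolism, 2 fell and 2 rose as DEGs. Nos2, the inducible nitric oxide synthase that uses arginine, was at 422, 375 and 390 CPM in V1 to V3 and at 3.75, 4.95 and 3.96 CPM in T4 to T6, a log2 fold change of -6.56. Arg1, the arginase that splits arginine into ornithine and urea, was at 1.89, 2.57 and 2.73 CPM with vehicle and 35.3, 34.5 and 31.2 CPM with β-SITO, a log2 fold change of 3.81. The other arginase gene, Arg2, had too few counts to be tested, with 18, 20 and 9 counts in V1 to V3 and 1, 2 and 1 in T4 to T6. Nos2 and Arg1 are expressed by macrophages, among other cells, and the part of macrophages in these differences was not tested. Ass1, which remakes arginine from citrulline, fell from 206 ± 6.02 to 30.9 ± 2.49 CPM. Nos3, the endothelial nitric oxide synthase, rose from 3.57 ± 0.702 to 28.8 ± 3.74 CPM. Endothelial markers rose too, and their part in the rise of Nos3 was not tested.

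In a list on glutathione and the supply of its cysteine, 8 genes were tested, and 1 fell and 2 rose as DEGs. The list also holds genes of enzymes that break glutathione down. Cth, which makes cysteine from cystathionine, had a log2 fold change of -3.16, and Cbs, which makes cystathionine, one of 2.33 at low counts. The third was Ggt5, of an enzyme that breaks glutathione down, with 1.71. The genes of the rate-limiting enzyme of glutathione synthesis were not DEGs, with log2 fold changes of -0.02 for Gclc and 0.40 for Gclm. Of 17 tested genes of the ATF4 amino acid response, 3 fell and none rose as DEGs, and 13 fell and 2 rose at an adjusted p under 0.05 alone. The largest decrease among them was that of Nupr1, a stress-induced chromatin protein, with a log2 fold change of -2.55, followed by Ddit3 (CHOP) with -1.58 and Cebpb with -1.14. Atf4 itself went from 261 ± 18.6 to 154 ± 3.18 CPM, a log2 fold change of -0.76, and Asns, asparagine synthetase, had one of -0.97.

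Each of the remaining lists, which differ in length, held 1 DEG. Lists can share genes, as Asns stands in both the ATF4 list and that of glutamine and glutamate enzymes. Of 23 genes of amino acid sensing by mTORC1, 1 rose and none fell as DEGs. This was Sesn1, a sestrin that restrains mTORC1, at 17.4, 17.6 and 18.8 CPM with vehicle and 71.8, 68.0 and 66.8 CPM with β-SITO, a log2 fold change of 1.94. Among 11 tested genes of glutamine and glutamate enzymes, the glutamate decarboxylase gene Gad2 fell, from 13, 13 and 17 counts to 1, 1 and 2. Of 5 genes of serine and glycine synthesis, Shmt2 was a DEG with a log2 fold change of -1.07, and all 5 were lower at an adjusted p under 0.05. Of 8 genes of branched-chain amino acid catabolism, Bcat1, the cytosolic aminotransferase, was a DEG with a log2 fold change of -1.01.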

How the data were processed

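The authors deposited 1 table of raw read counts per gene for the 6 libraries, without normalization, and every column was matched to a sample by its library name. Per the labels' processing notes, FastQC, HISAT2 and featureCounts were used with GRCm39, and their versions, the counting options and the use of strand are not given in the sources used here. The study's methods name an mRNA-seq kit of another maker than the labels do. Counts depend on how reads shared by overlapping genes were assigned, so 6 described members that overlap another detected gene are less certain, Slc7a7 and Slc6a9 the most.

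CPM, tests and fold changes were obtained from the counts in R 4.3.3 with edgeR 4.0.16, using filterByExpr, which kept 14799 genes, TMM normalization and the quasi-likelihood test with Benjamini-Hochberg adjustment over all genes tested and the group as the only term. A biological coefficient of variation of 6.52% was estimated. The threshold was that of the study's methods, an adjusted p under 0.05 with more than 2-fold. DESeq2 1.42.0 and limma 3.58.1 (voom) were alternatives, beside glmTreat, other normalizations and filters and the removal of each library. Scripts were tested on simulated data.

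Exon lengths came from GENCODE vM21, matched by gene ID for 52029 of 57010 genes and all 61 members, and promoters from RefSeq on GRCm38.p6. Coordinates of genes are those of the deposited table. The members and lists were chosen with earlier results of these data known. The genes named were all DEGs among the members, the 5 members with the highest mean RPKM, the heavy and light chains, those next to the 10-count limit, the DEGs with the largest increase and the largest decrease in each list and the most abundant marker of each cell type. The other described members, Slc3a1, Gclc, Gclm, Atf4, Asns and Arg2 and the other DEGs of the lists were named after their values had been seen. Permuting the 6 libraries exactly cannot give a p under 0.1, so single genes were tested in the model across genes. Counting intervals are exact (Clopper-Pearson, 95%).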

Additional observations from a re-analysis of the deposited data

How the results depend on the processing

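No paired analysis was possible because the replicate numbers of the groups, 1 to 3 and 4 to 6, are not shared. Under 15 other settings, 15 of the 17 DEGs among the members stayed DEGs. The exceptions were Slc38a3 (with glmTreat against 2-fold, and without V3 or T6, as given above) and Slc6a9, which lost the call with glmTreat (adjusted p = 0.318), with upper quartile normalization (log2 fold change -0.94), with library size only (-0.94) and without V3 (-0.997). Slc38a4 became a DEG with upper quartile normalization (1.01) and with library size only (1.01), the settings that shifted the median log2 fold change of all genes by 0.14 and 0.15. Relative to the main analysis these settings lowered the share of decreases among all DEGs from 44.1% to 36.3% and 36.1%. With no limit on the fold change, 5007 genes were lower and 4885 higher in place of 1492 and 1888, and 21 and 14 members in place of 11 and 6, by construction of the threshold. Leaving out each library in turn gave 1476 to 1565 lower and 1943 to 2101 higher DEGs among all genes, and 10 to 11 lower and 5 to 6 higher among the members. Of the described members, Slc38a1 (-0.00 without V2) and Slc7a4 (-0.01 without V1 and -0.08 without T6) changed direction, neither of which passed edgeR's test. Without V1, log2 fold changes of Slc38a1 (0.19), Slc38a2 (0.25) and Slc6a17 (0.59) passed an adjusted p of 0.05, as did that of Slc6a17 without T4 (0.52). The fitted log2 fold change of Slc6a16, -9.08, was -7.19 with limma-voom, so its bound was reported instead. At this depth, members with a few counts per library could be compared only across large folds.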
